A study of Mus musculus with 3 samples.

Results

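To describe interferon-stimulated genes in the kidney cells of this study, 8 genes were followed by name: Ifit1, Ifit3, Isg15, Irf7, Rsad2, Gbp2, Bst2 and Ubd, out of 22535 genes in the count tables. They were taken as a list by name, and all 8 were present in the tables of all 3 libraries. The cells came from the kidney cortex of WT1CreERT2; Rosa26-tdT fl/+ mice given tamoxifen, in which cells that express Wt1, and their descendants, carry the red fluorescent protein tdTomato (tdT). The Wt1 promoter that drives the recombinase is active mainly in podocytes and in some parietal epithelial cells, so that a tdT sort enriches for both. Kidneys were pooled for each library. The Sham library combined sorted tdT+ cells with tdT- cells from sham-operated mice. Both other libraries came from mice whose kidneys had undergone severe ischemia-reperfusion injury (IRI) on both sides 24 h earlier. Of these, IRI24h-TDN again combined tdT+ with tdT- cells, while only tdT+ cells entered IRI24h-TD. Each condition was a single library, so that differences between them cannot be set against replicates, and no p-value was computed. Intervals are exact 95% intervals for counting error only.

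Cells make interferon-stimulated genes when type I, II or III interferon binds its receptor, Janus kinases phosphorylate STAT proteins, and STAT complexes bind the interferon-stimulated response element (ISRE) or the gamma-activated site (GAS) of their promoters. Macrophages are a common source of interferon-β, the product of Ifnb1, and endothelial cells, macrophages and epithelial cells all can respond. Among the genes followed here, Ifit1 and Ifit3 bind foreign RNA, Rsad2 (viperin) makes a chain-terminating nucleotide, Isg15 is a ubiquitin-like modifier, and Bst2 (tetherin) holds budding virus at the membrane. Irf7 is the transcription factor that amplifies type I interferon, Gbp2 is a guanylate-binding GTPase induced mainly by interferon-γ, and Ubd (FAT10) is a ubiquitin-like modifier induced by interferon-γ and tumor necrosis factor.

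The promoters of these genes were examined for the letters through which interferon is known to act, and 5 of them are shown because they differ in those letters and the genes differ in the cells that held their RNA. Each window runs 5′ to 3′ from 250 bases before to 50 bases after the annotated start in RefSeq on GRCm38.p6. Capitals mark matches to an ISRE-type sequence, GAAA followed by any 2 bases and a further GAAA on either strand, or to a GAS-type sequence, TTCNNNGAA on either strand. The windows are Ifit1 at chr19:34640639-34640938 (+), Isg15 at chr4:156200769-156201068 (-), Bst2 at chr8:71537423-71537722 (-), Gbp2 at chr3:142620413-142620712 (+) and Ubd at chr17:37193642-37193941 (+).
Ifit1: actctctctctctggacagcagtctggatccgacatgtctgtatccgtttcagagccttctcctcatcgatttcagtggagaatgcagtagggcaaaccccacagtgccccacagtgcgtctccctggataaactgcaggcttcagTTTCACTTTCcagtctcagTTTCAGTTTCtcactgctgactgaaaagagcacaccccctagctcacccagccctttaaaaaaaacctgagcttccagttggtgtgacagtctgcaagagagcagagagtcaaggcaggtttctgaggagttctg
Isg15: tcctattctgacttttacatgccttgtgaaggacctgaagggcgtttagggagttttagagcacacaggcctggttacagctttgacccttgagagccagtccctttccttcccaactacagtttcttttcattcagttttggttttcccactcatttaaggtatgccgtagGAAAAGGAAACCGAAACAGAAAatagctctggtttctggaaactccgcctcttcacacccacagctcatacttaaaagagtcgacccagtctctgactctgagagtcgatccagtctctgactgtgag
Bst2: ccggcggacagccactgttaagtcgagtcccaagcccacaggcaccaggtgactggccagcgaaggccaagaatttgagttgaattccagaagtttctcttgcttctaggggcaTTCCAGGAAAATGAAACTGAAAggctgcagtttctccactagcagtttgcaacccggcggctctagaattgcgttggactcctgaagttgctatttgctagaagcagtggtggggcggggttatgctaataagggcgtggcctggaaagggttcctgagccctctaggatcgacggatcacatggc
Gbp2: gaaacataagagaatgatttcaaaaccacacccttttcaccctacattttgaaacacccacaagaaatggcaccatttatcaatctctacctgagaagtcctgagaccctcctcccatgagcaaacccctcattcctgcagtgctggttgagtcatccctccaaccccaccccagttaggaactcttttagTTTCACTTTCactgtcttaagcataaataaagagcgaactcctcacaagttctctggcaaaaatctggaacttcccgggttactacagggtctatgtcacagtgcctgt
Ubd: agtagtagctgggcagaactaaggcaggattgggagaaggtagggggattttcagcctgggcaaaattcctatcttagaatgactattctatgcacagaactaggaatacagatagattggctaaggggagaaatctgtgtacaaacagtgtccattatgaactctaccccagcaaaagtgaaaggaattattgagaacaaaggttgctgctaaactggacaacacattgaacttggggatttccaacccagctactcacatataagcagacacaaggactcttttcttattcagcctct

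An ISRE-type match was found in the windows of 6 of the 8 genes, against 3.44% of the 32851 promoters searched. Ifit1 held 2 matches, beginning at positions -104 and -85 from the start site, Isg15 held 3 that overlap each other within 1 run, and Gbp2 and Rsad2 held 1 each. Bst2 was the only one of the 8 with a GAS-type match, which overlapped the first of its 2 ISRE-type matches. GAS-type letters were present in 8.30% of all promoters and both kinds in 0.454%. In the windows of Irf7 and Ubd neither set of letters was found, which says only that these letters are not within those 300 bases. Among other interferon-induced genes with a window, 10 of 22 of the antiviral list and 9 of 16 of the interferon-γ list held an ISRE-type match, and 7 of 16 of the latter a GAS-type match. A match of letters is a description and not a binding site.

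The tables held 69980443 (Sham), 92355554 (IRI24h-TDN) and 93470709 (IRI24h-TD) unique molecular identifiers (UMIs, each tagging 1 captured RNA molecule). Of 30008 barcodes, 26760 passed the limits of at least 200 genes and at most 50% mitochondrial UMIs, with a median per cell of 7746, 9151 and 9529 UMIs in the same order. Clusters, formed without the 8 genes and the other interferon genes, were named from markers into 15 classes, and 1433 cells stayed unnamed. Podocyte-like cells made up 54.2%, 57.5% and 89.5% of the kept cells. The sort sets these shares, and they were not compared. Pairs of libraries shared 102 to 114 barcodes, and without these none of the 66 ratios recomputed left the counting interval of the value given here. Markers of each class are given where they bear on a result. C1qa was found in 96.2% of C1q macrophage-like cells of Sham and 99.8% of those of IRI24h-TDN. Endothelial-like cells, though, also carried 12388 CPM (a level that scales the UMIs of a gene to all UMIs of the class in that library) of the 10 podocyte markers in Sham and 5048 CPM in IRI24h-TDN, beside 14319 and 15032 CPM of the 10 endothelial markers. How much podocyte RNA or joined cells add to endothelial values was not tested.

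The 8 genes were not shared evenly among kidney cells. Summed over the 8 genes, Sham held 3578 CPM in C1q macrophage-like cells and 2354 CPM in endothelial-like cells, but 346 CPM in parietal epithelial (PEC)-like cells, 88.1 CPM in podocyte-like cells and 43.2 CPM in proximal tubular epithelial (PTEC)-like cells. In IRI24h-TDN endothelial-like cells came first with 1652 CPM, ahead of C1q macrophage-like cells with 675 CPM. The median cell had 4083 UMIs in C1q macrophage-like and 8235 UMIs in podocyte-like cells of Sham, so that the higher levels were not in the deeper cells.

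**Figure D1:**
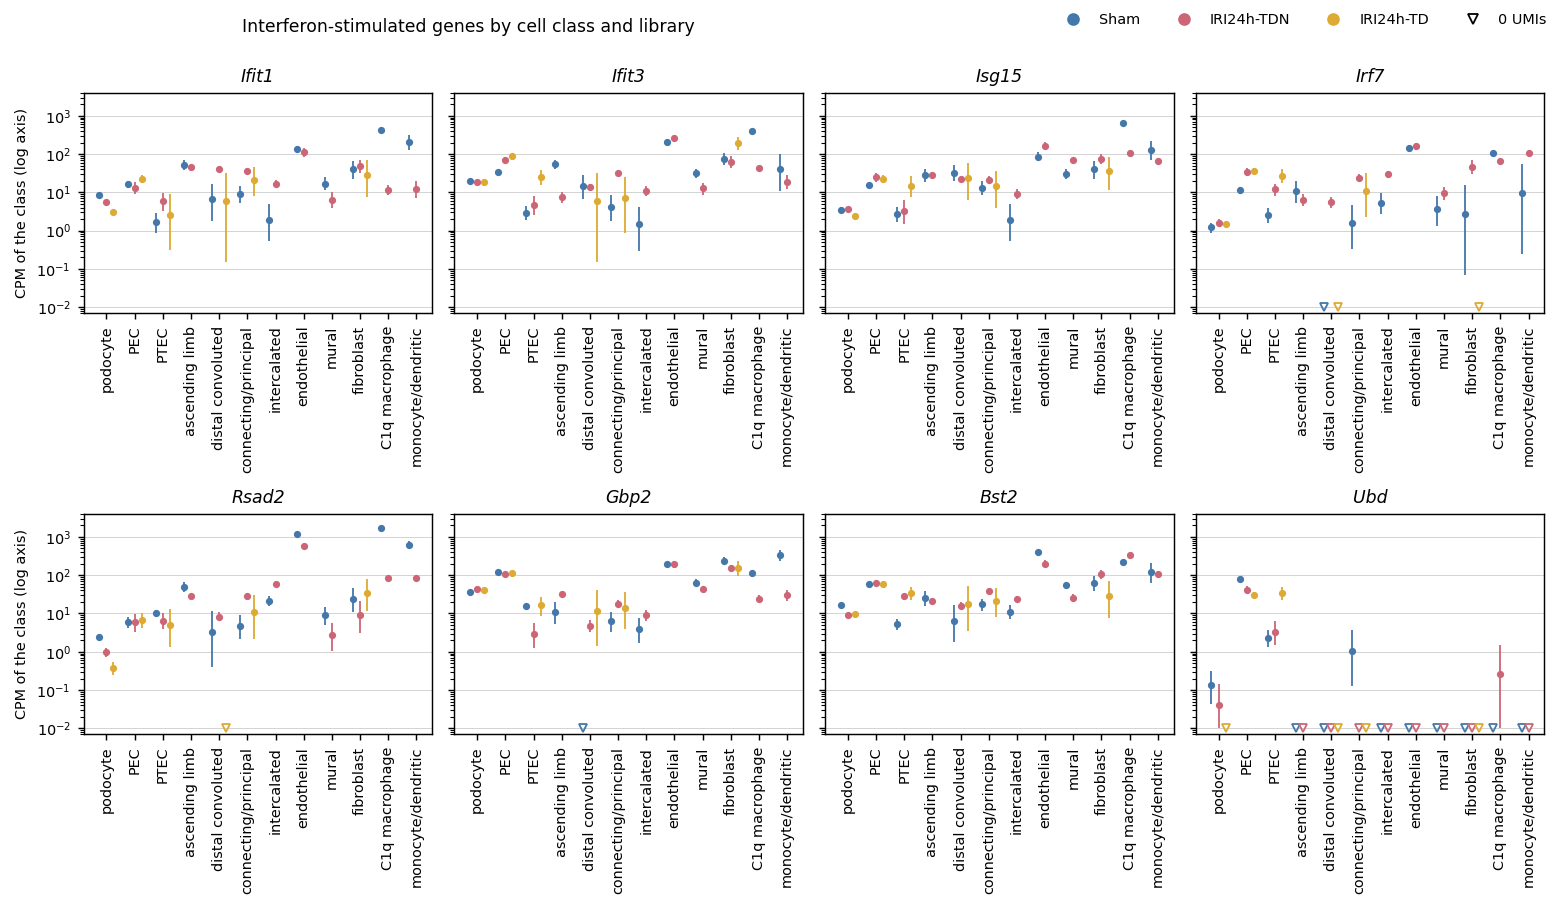
CPM of each of the 8 genes (log axis) by cell class in Sham, IRI24h-TDN and IRI24h-TD, with bars for the exact 95% counting interval and open triangles for classes with 0 UMIs. Classes with at least 20 cells in a library are drawn, except neutrophil-like, T and NK-like and B and plasma-like cells. All panels but that of Ubd show their highest Sham values in macrophage-like, endothelial-like or other immune classes, while Ubd stands in PEC-like cells at 80.8 CPM in Sham.

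The antiviral effectors had their highest levels in macrophages and endothelium. Rsad2 in Sham was at 1679 CPM (interval 1601 to 1760) in C1q macrophage-like cells, 1179 CPM in endothelial-like cells and 632 CPM in monocyte- and dendritic-like cells, the first 2 of which differed by more than their counting intervals. Ifit1 in Sham was at 434 CPM in C1q macrophage-like, 207 CPM in monocyte- and dendritic-like and 133 CPM in endothelial-like cells, and the last 2 overlapped. Isg15 was at 631 CPM in C1q macrophage-like and 554 CPM in neutrophil-like cells, whose intervals overlap. Ifit3 came to 390 CPM in C1q macrophage-like, 205 CPM in endothelial-like and 75.8 CPM in fibroblast-like cells. Bst2 was highest in endothelial-like cells of Sham with 407 CPM, followed by T and NK-like (250 CPM), B and plasma-like (245 CPM) and C1q macrophage-like cells (225 CPM), each overlapping the next.

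The transcription factor and the interferon-γ-type genes were spread differently. Irf7 in Sham was at 146 CPM in endothelial-like and 108 CPM in C1q macrophage-like cells, which overlapped. Gbp2 had no macrophage peak. Its Sham level was 336 CPM in monocyte- and dendritic-like, 327 CPM in neutrophil-like, 241 CPM in fibroblast-like and 199 CPM in endothelial-like cells, with each interval overlapping the next, and then 125 CPM in PEC-like cells, close to the 111 CPM of C1q macrophage-like cells. Ubd in Sham was a gene of PEC-like cells, with 80.8 CPM (interval 74.3 to 87.6) against 2.29 CPM in PTEC-like cells, the next class in order. In IRI24h-TD it was at 33.7 CPM in PTEC-like and 30.6 CPM in PEC-like cells, which overlapped. No Ubd UMI was found in the 200 endothelial-like cells of Sham, which allows up to 4.33 CPM, nor in the 235 C1q macrophage-like cells of Sham, which allows up to 2.88 CPM.

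To ask how the genes differed after injury, IRI24h-TDN was set against Sham within each class, since both libraries held mixtures of tdT+ and tdT- cells. A gene was counted as higher or lower at 2-fold, with at least 10 UMIs in both libraries together. In C1q macrophage-like cells (235 in Sham, 639 in IRI24h-TDN) 5 of the 7 genes with enough UMIs were lower after IRI and 0 were higher. Over all 10431 genes measured in these cells 10.2% were at least 2-fold lower and 16.4% at least 2-fold higher. The median log2 ratio of the 7 genes was -2.57, against 0.22 for all genes.

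Ifit1 showed the widest gap of the 8. It was at 434 CPM (395 to 476) in C1q macrophage-like cells of Sham and 11.6 CPM (8.43 to 15.6) in those of IRI24h-TDN, 37.4-fold lower, a log2 ratio of -5.23 (-5.71 to -4.78). Rsad2 was at 1679 CPM and 82.3 CPM, 20.4-fold lower, and its UMIs were seen in 133 of 235 cells of Sham and 76 of 639 cells of IRI24h-TDN (56.6% and 11.9%, or 48.0% and 6.57% at 2000 UMIs per cell). In podocyte-like cells, with few macrophage genes, the Rsad2 shares were 1.60% and 0.482%. Ifit3 was at 390 and 41.9 CPM (log2 ratio -3.22) and Isg15 at 631 and 106 CPM (log2 ratio -2.57), so that these antiviral effectors were lower together. Gbp2 was at 111 and 24.3 CPM, a log2 ratio of -2.20, although 25% of its UMIs after IRI came from 1 cell.

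The other members of the list did not follow. Irf7 was at 108 CPM in Sham and 66.2 CPM after IRI, a log2 ratio of -0.70 that stays within 2-fold. Bst2 lay on the other side, with 225 CPM in Sham and 342 CPM after IRI (log2 ratio 0.60), and 49.4% of cells in Sham against 72.6% after IRI held a Bst2 UMI. After thinning each cell to 2000 UMIs the Bst2 shares were 33.6% and 44.3%. Ubd had 0 and 1 UMI in these cells, and no ratio was formed.

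**Figure D2:**
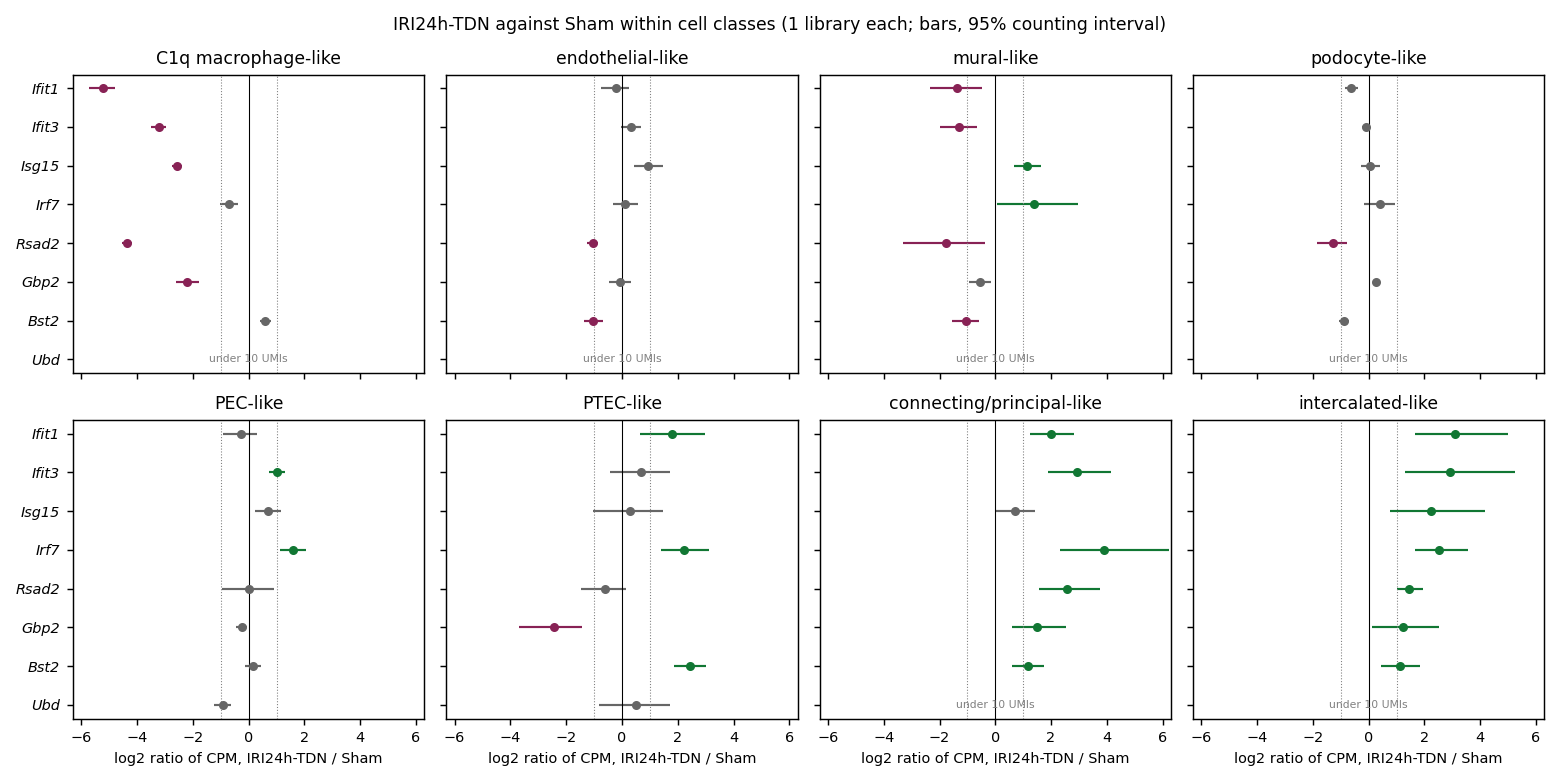
Log2 ratio of CPM, IRI24h-TDN against Sham, for each of the 8 genes in 8 cell classes, with bars for the 95% counting interval, dotted lines at 2-fold, purple for genes at least 2-fold lower and green for genes at least 2-fold higher. Ifit1, Ifit3, Isg15, Rsad2 and Gbp2 lie below the lower line in C1q macrophage-like cells, and 7 genes lie above the upper line in intercalated-like cells.

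The same order of the libraries was seen in each of the 5 clusters that made up the C1q macrophage-like class. Rsad2 was at 3009 CPM in Sham and 46.7 CPM after IRI in the cluster led by Mmp13 and Rims2, at 2207 and 84.1 CPM in that led by Cxcl1 and Ccl12, and at 874 and 88.3 CPM in that led by Lyve1, a gene of resident perivascular macrophages. The smallest gap for Rsad2 was in the cluster led by the heat shock genes Hspa1a and Hspa1b, with 1237 and 182 CPM, and this cluster held 105 of the 235 cells of Sham but 143 of the 639 cells of IRI24h-TDN. Ifit1 ranged from 270 to 648 CPM over these clusters in Sham and from 6.11 to 20.8 CPM in IRI24h-TDN, without overlap. Bst2 was higher after IRI in all 5, with 145 to 265 CPM in Sham and 259 to 376 CPM in IRI24h-TDN. Ifit2, Ifit3 and Ifnb1 were also among the leading genes of the heat shock cluster, which was picked partly by Ifit2 and Ifit3. Leaving that cluster out was therefore not independent of the 8 genes. It gave a summed log2 ratio of -2.63 in place of -2.41, and Ifit3 was at -4.02 in place of -3.22.

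Single macrophages of Sham carried several of the 8 genes at once. At 2000 UMIs per cell, 43.2% of 229 C1q macrophage-like cells of Sham (interval 36.7 to 49.9) held UMIs of at least 3 of the 8 genes, against 3.29% of 639 cells of IRI24h-TDN (2.05 to 4.98). Without thinning the shares were 59.6% and 18.5%, with 4083 and 5343 UMIs in the median cell. Of 133 Sham cells with an Rsad2 UMI, 58.6% also held Ifit1 and 82.0% Isg15, while of the 102 without Rsad2, 29.4% held Ifit1 and 59.8% Isg15. Among the C1q macrophage-like cells of IRI24h-TDN, 13.2% of 76 cells with Rsad2 held Ifit1, and 3.20% of 563 without it. The shares for pairs of genes were taken without thinning, and the part of depth in them was not tested. In podocyte-like cells, deeper than macrophages, only 0.0936% of Sham and 0.0193% of IRI24h-TDN held at least 3 of the 8 genes at 2000 UMIs.

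**Figure D3:**
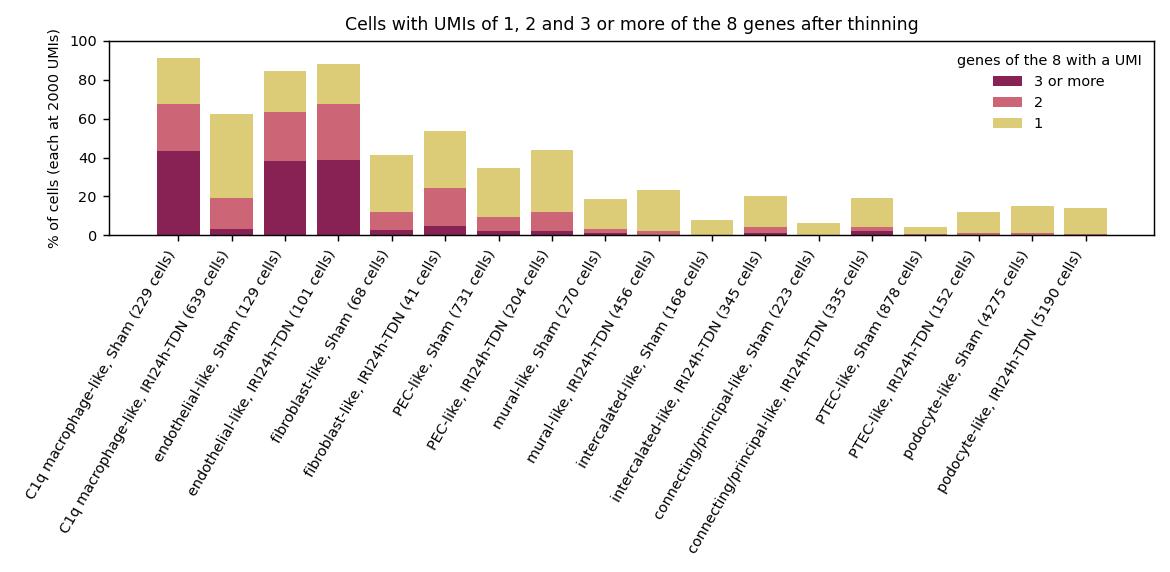
Share of cells (percent, each cell thinned to 2000 UMIs) with UMIs of 1, 2 or at least 3 of the 8 genes, as stacked bars for each cell class in Sham and IRI24h-TDN. The block for at least 3 genes takes 43.2% of C1q macrophage-like cells in Sham and 3.29% in IRI24h-TDN, and 38.0% and 38.6% of endothelial-like cells. Cells under 2000 UMIs were left out, which kept 129 of 200 endothelial-like cells of Sham and 101 of 102 of IRI24h-TDN. Without thinning the endothelial-like shares were 48.0% and 70.6%.

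Other genes of the interferon pathway differed in the same cells. Of the ligands, Ifnb1 was at 616 CPM in C1q macrophage-like cells of Sham, in 53.2% of cells, and at 9.76 CPM in IRI24h-TDN, in 2.19% of cells, a log2 ratio of -5.98. Ifna2, a type I interferon-α, had 17 UMIs in Sham and 0 in IRI24h-TDN. Ifnb1 was at 0.574 CPM in podocyte-like cells of Sham, and had 0 UMIs in endothelial-like cells, which allows up to 4.33 CPM in Sham and 6.16 CPM in IRI24h-TDN. Of other antiviral genes, 11 of 32 were lower and 0 higher, with a median log2 ratio of -0.74, among them Ifit2, a close relative of Ifit1, at 1178 and 59.6 CPM. The most abundant genes of that list differed less, with Ifitm3, a membrane restriction factor, at 622 and 644 CPM, Lgals3bp at 467 and 565 CPM and Ifi27 at 57.7 and 33.2 CPM. Of the interferon-γ-type genes, 12 of 22 were lower and 0 higher, among them the chemokine Cxcl10 at 3080.5 and 583 CPM and the GTPase Gbp7 at 174 and 50.9 CPM, while Irgm2 (26.9 and 17.4 CPM) and Irgm1 (79.8 and 42.7 CPM) stayed within 2-fold.

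The machinery upstream differed less. Of 5 measured receptor genes 1 was higher, Ifngr2 with 116 and 268 CPM, and Ifngr1 (192 and 212 CPM), Il10rb (165 and 187 CPM) and Ifnar1 (87.5 and 144 CPM) stayed within 2-fold. Of the Janus kinase and STAT genes only Jak1 is given, at 209 and 260 CPM, within 2-fold. Of the feedback inhibitors, Socs1 was at 31.7 and 8.97 CPM and Socs3 at 150 and 342 CPM, in opposite directions. No other interferon regulatory factor of 5 passed 2-fold, with Irf1 at 248.9 and 360 CPM and Irf8 at 326 and 308 CPM. Of 12 genes that answer to NF-κB and tumor necrosis factor, 3 were higher and 3 lower, with Cxcl1 at 655 and 2312 CPM and Tnfaip3 at 1341 and 544 CPM. Of 10 nucleic acid sensing genes 2 were lower and 0 higher, and Tlr7 was at 120 and 205 CPM and Tbk1 at 51.9 and 94.96 CPM. All 5 genes that dissociation is known to induce were also lower after IRI in these cells, for example Egr1 at 6325 and 896 CPM, Jun at 3564 and 915 CPM and Hspa1b at 3554 and 888 CPM, and their part in the interferon result was not tested.

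**Figure D4:**
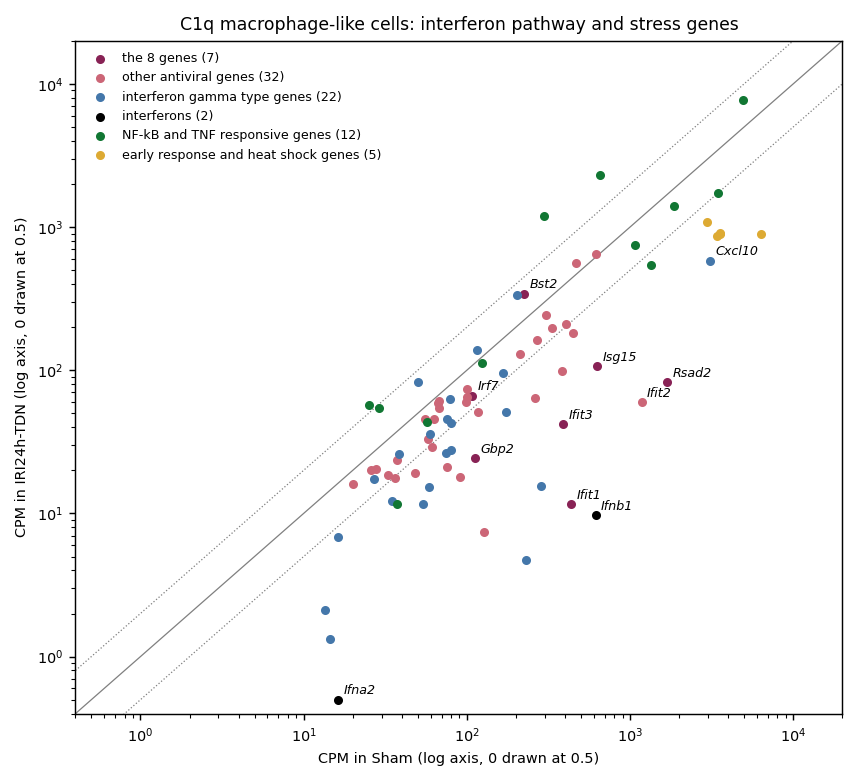
CPM in C1q macrophage-like cells of Sham (x axis) and IRI24h-TDN (y axis), both on log scales, for 7 of the 8 genes (not Ubd), the antiviral, interferon-γ-type, interferon, NF-κB and dissociation lists, coloured by list, with lines for equal values and for 2-fold. Ifnb1, Ifit1, Ifit2 and Rsad2 lie far below the line of equal values, and Bst2 above it.

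Monocyte- and dendritic-like cells were few in Sham (21 cells) and 213 in IRI24h-TDN, and no ratio was formed for them alone. Rsad2 there was at 632 CPM in Sham, where 1 cell held 53.1% of its UMIs, and 86.7 CPM after IRI, where 1 cell held 75.4%. Irf7 had 1 UMI in Sham and 144 in IRI24h-TDN (106 CPM), in 37.1% of the cells. Joined with C1q macrophage-like cells, the class had a summed log2 ratio of -2.48, and 5 of 7 genes lower beside 10% of all genes in these cells.

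Endothelial-like cells had high levels of the antiviral genes in both libraries. Of 7 measured genes 2 were lower after IRI and 0 higher (200 cells in Sham, 102 in IRI24h-TDN), where 12.7% of all genes in these cells were lower and 8.58% higher. Rsad2 was at 1179 CPM in Sham and 569 CPM in IRI24h-TDN, a log2 ratio of -1.05 (-1.25 to -0.85), and its UMIs were in 73.0% and 63.7% of the cells. Bst2 was at 407 and 199 CPM (log2 ratio -1.03). Both lie at the 2-fold limit, and after thinning the Rsad2 ratio was -0.81. The count was not stable, with 0 lower and 1 higher without cells that held immune RNA, and 1 lower and 1 higher when thinned or without the top 1% of cells, the higher gene being Isg15. Isg15 was at 85.2 and 164 CPM (log2 ratio 0.95), on the other side, while Ifit1, Ifit3, Irf7 and Gbp2 differed by less than their counting intervals. Of the interferon-γ-type genes 9 of 19 were lower and 0 higher, for example Gbp7 at 411 and 189 CPM. The summed level of podocyte markers in these cells was also lower after IRI, as given above, and its part was not tested.

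PEC-like cells, which line Bowman's capsule, differed from macrophages. Of the 8 genes 2 were higher after IRI and 0 lower (788 cells in Sham, 205 in IRI24h-TDN), beside 5.89% of all genes higher and 12.3% lower. Irf7 was at 11.1 CPM in Sham, 33.8 CPM in IRI24h-TDN and 36.5 CPM in IRI24h-TD, so that both libraries made after IRI stood above Sham. Ifit3 was at 34.3, 69.8 and 90.7 CPM, in 15.5%, 27.8% and 31.9% of the cells. At 2000 UMIs per cell Ifit3 was in 5.06%, 10.8% and 11.5%. The log2 ratio of IRI24h-TDN against Sham was 1.60 (1.14 to 2.07) for Irf7 and 1.03 (0.73 to 1.32) for Ifit3, the latter at the 2-fold limit.

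Ifit1, Isg15, Rsad2, Gbp2 and Bst2 stayed within 2-fold in PEC-like cells. Isg15 was at 15.3 CPM in Sham and 24.9 CPM in IRI24h-TDN, with a log2 ratio of 0.70 (0.22 to 1.17). Gbp2 was at 125, 105 and 116 CPM and Bst2 at 57.5, 64.3 and 58.1 CPM in Sham, IRI24h-TDN and IRI24h-TD, near each other in all 3. Ubd was at 80.8 CPM in Sham, 42.3 CPM in IRI24h-TDN and 30.6 CPM in IRI24h-TD, and its log2 ratio of -0.93 (-1.25 to -0.63) for IRI24h-TDN against Sham stays just within 2-fold. That ratio depended on how the cells were clustered, from -3.89 without correction between libraries to -0.03 at a finer resolution.

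Within the PEC-like class Ubd lay almost wholly in 1 of 2 clusters, in a minority of its cells. Nearly all of its UMIs, 579 of 580 in Sham, lay in the PEC-like cluster led by Wfdc16, Gc and Ptgds (380, 113 and 134 cells in Sham, IRI24h-TDN and IRI24h-TD), at 142, 63.4 and 51.1 CPM and in 33.9%, 29.2% and 26.9% of its cells. By its markers this cluster came next nearest to PTEC. In the PEC-like cluster led by Tnc, Stc2, Bmp3 and Wnt16 (408, 92 and 145 cells) Ubd had 1, 0 and 0 UMIs. Ifit3 went the other way, with 55.3, 147 and 169 CPM in the Tnc-led cluster and 18.2, 31.1 and 37.9 CPM in the Wfdc16-led cluster. Gbp2 was also higher in the Tnc-led cluster in each library (173, 185 and 152 CPM against 87.9, 64.7 and 91.7 CPM). Irf7 after IRI was higher in the Wfdc16-led cluster, at 39.96 and 47.8 CPM in IRI24h-TDN and IRI24h-TD, against 21.6 and 19.6 CPM. In Sham Irf7 was at 11.3 and 10.9 CPM in these clusters. Among Sham PEC-like cells with Ubd, 50% of 130 also held Bst2, against 23.7% of 658 without it, and 11.5% held Ifit3 against 16.3%. These shares were taken without thinning and over both clusters. Over all libraries the median cell had 11048 UMIs in the Wfdc16-led and 6803 UMIs in the Tnc-led cluster. The part of depth and cluster in these shares was not tested. Since the 8 genes were left out of the clustering, they did not define these clusters.

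**Figure D5:**
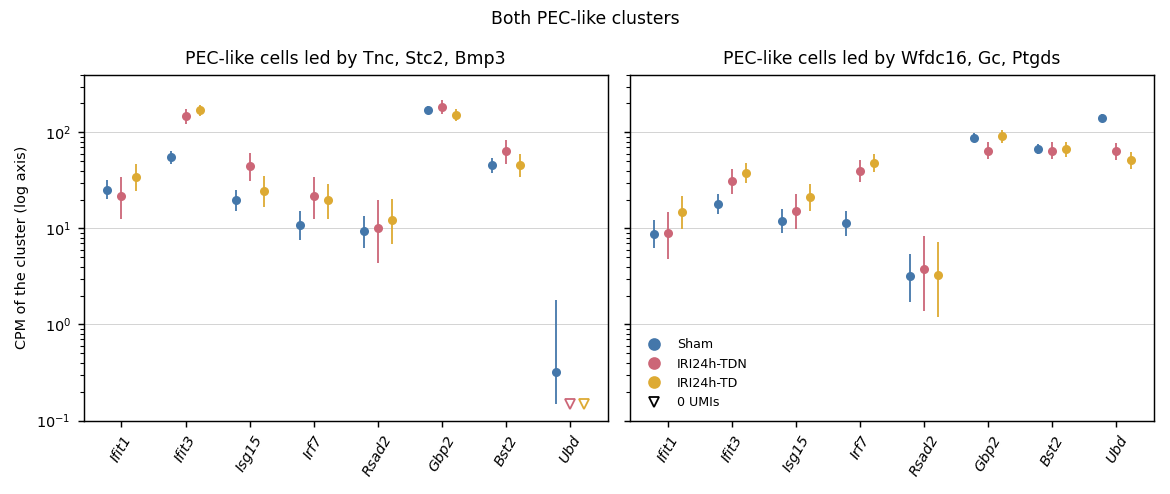
CPM of the 8 genes in the Tnc-led and the Wfdc16-led cluster of PEC-like cells in Sham, IRI24h-TDN and IRI24h-TD, with bars for the 95% counting interval. Ubd stands at 51.1 to 142 CPM in the Wfdc16-led cluster and at or near 0 in the Tnc-led cluster, and Ifit3 at 55.3 to 169 CPM in the Tnc-led and 18.2 to 37.9 CPM in the Wfdc16-led cluster.

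Other pathway genes of PEC-like cells did not go with Irf7 and Ifit3. Of 29 other antiviral genes 2 were higher and 1 lower, with Ifi27 at 304 and 389 CPM and Lgals3bp at 631 and 442 CPM. Of 21 interferon-γ-type genes 10 were lower and 0 higher, among them Cxcl10 at 416 CPM in Sham and 66.4 CPM in IRI24h-TDN. Irf1 was at 412 and 194 CPM. The summed PTEC markers in PEC-like cells were 5559 CPM in Sham, 2193 CPM in IRI24h-TDN and 1895 CPM in IRI24h-TD, and macrophage markers 219, 124 and 64.4 CPM. Markers of monocytes and dendritic cells were higher after IRI, at 45.1, 181 and 99.5 CPM, and those of neutrophils were at 1.39, 71.5 and 0 CPM. The share of PEC-like cells with an immune UMI was 5.08%, 16.6% and 0.358%. In IRI24h-TD the macrophage sum came from 2 of 8 genes and the monocyte and dendritic sum from 3 of 9. These sums need not be immune RNA. The part of these markers and cells in the differences was not tested beyond leaving out the cells with an immune UMI. After that Irf7 had a log2 ratio of 1.62 and Ifit3 of 0.81.

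Podocyte-like cells, the most numerous class, held the 8 genes at low levels. Of 7 measured genes 1 was lower after IRI and 0 higher (4364 cells in Sham, 5190 in IRI24h-TDN), beside 11.9% of all genes lower and 6.28% higher. Gbp2 there was at 36.0 CPM in Sham, 42.7 CPM in IRI24h-TDN and 42.2 CPM in IRI24h-TD. Ifit3 was at 19.7, 18.5 and 18.9 CPM, with a log2 ratio of -0.09 (-0.23 to 0.05) for IRI24h-TDN against Sham. Bst2 was at 16.7, 9.12 and 9.71 CPM, with both libraries made after IRI below Sham and a log2 ratio of -0.88 (-1.05 to -0.70). Ifit1 was at 8.47, 5.53 and 3.09 CPM, but in IRI24h-TDN 1 cell held 38.7% of its UMIs, and without the top 1% of cells its log2 ratio was -1.32 in place of -0.62.

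Rsad2, the gene below 2-fold, was at 2.38, 0.968 and 0.371 CPM in podocyte-like cells, in 1.60%, 0.482% and 0.219% of them, and 1 cell held 37.5% of its UMIs in IRI24h-TDN. Isg15 was at 3.47, 3.61 and 2.36 CPM and Irf7 at 1.203, 1.57 and 1.52 CPM, differing little. Ubd had 5, 2 and 0 UMIs. Of the interferon-γ-type genes 15 of 22 were lower and 0 higher in podocyte-like cells, for example Irgm2 at 116 and 39.7 CPM. Of 27 other antiviral genes 3 were lower and 0 higher. Irf1 was at 133 CPM in Sham and 455 CPM in IRI24h-TDN, Socs3 at 177 and 466 CPM and Nfkbia at 448 and 1768 CPM.

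Free RNA from other cells can add to a low level, so levels in podocyte-like cells were set against those of 10 macrophage and leukocyte markers. C1qa in podocyte-like cells was at 0.0432% of its level in C1q macrophage-like cells in Sham and 0.0537% in IRI24h-TDN. For Rsad2 the same figure was 0.142% and 1.18%, for Isg15 0.551% and 3.40%, for Ifit3 5.05% and 44.2%, and for Gbp2 32.3% and 176%. These figures also move with the macrophage level, which was 1679 and 82.3 CPM for Rsad2 and 390 and 41.9 CPM for Ifit3. In podocyte-like cells Rsad2 was at 2.38 and 0.968 CPM and Ifit3 at 19.7 and 18.5 CPM. The macrophage level of C1qa was higher after IRI (2025 and 3196 CPM), so the figures of the 2 libraries are not alike. Of the 10 markers, 8 lay at 0.0189% to 0.124% in Sham and 0.0537% to 0.138% in IRI24h-TDN. The other two, Csf1r (0.493% and 0.189%) and Cd68 (2.35% and 1.205%), lay higher, and Cd68 was still at 10.9 CPM in podocyte-like cells of IRI24h-TD, where C1qa was at 0.108 CPM. Rsad2 in Sham was close to the highest of the 8 markers. Ifit1 (1.95% and 47.6%), Irf7 (1.12% and 2.38%) and Bst2 (7.44% and 2.67%) lay above all 8 in both libraries, as did Isg15, Ifit3 and Gbp2. These 8 are the markers left without Csf1r and Cd68, which lay highest. Against all 10, Ifit1, Irf7 and Isg15 lay below Cd68 in Sham, and Rsad2 lay below it in both libraries. In IRI24h-TD, with 10 C1q macrophage-like cells, Irf7 was at 1.52 CPM in podocyte-like cells. Free RNA from cells other than macrophages was not tested.

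PTEC-like cells had few UMIs of the 8 genes. Of the 8, 3 were higher after IRI and 1 lower (914 cells in Sham, 152 in IRI24h-TDN), beside 18.8% of all genes higher and 15.5% lower. Bst2 was at 5.22 CPM in Sham, 28.3 CPM in IRI24h-TDN and 33.7 CPM in IRI24h-TD, a log2 ratio of 2.44 (1.87 to 3.02) for the first pair. Irf7 was at 2.55, 11.96 and 27.5 CPM, and Ifit1 at 1.66, 5.80 and 2.50 CPM. Gbp2 was at 15.8 CPM in Sham and 2.90 CPM in IRI24h-TDN, but 1 Sham cell held 49.2% of its UMIs, and without the top 1% of cells its log2 ratio was -0.65 in place of -2.45. Rsad2 turned from -0.63 to 1.16. Without the top 1% of cells 6 of the 8 genes were higher and 0 lower, and without correction between libraries 5 and 0. The top 1% of cells held 58.7% of the UMIs of the 8 genes in PTEC-like cells of Sham.

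The PTEC-like cells of the libraries were not alike in other ways. The 14 PTEC markers summed to 64193 CPM in Sham, 10123 CPM in IRI24h-TDN and 9024 CPM in IRI24h-TD, and the 12 PEC markers to 381, 1496 and 1978 CPM. A cluster led by Cyp2d26 and Spp2 held 240 cells of Sham and 6 of IRI24h-TDN. Within the other cluster, led by Kap and Slco1a1, Bst2 was at 3.89 and 28.7 CPM and Irf7 at 1.25 and 12.1 CPM in Sham and IRI24h-TDN. Of 23 other antiviral genes 14 were higher and 0 lower in PTEC-like cells, among them Ifi27 at 41.8 and 155 CPM and Lgals3bp at 43.4 and 125 CPM, and of 11 genes that answer to NF-κB 9 were higher, with Cxcl1 at 11.3 and 297 CPM. What the difference in the makeup of the class adds was not tested.

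In the collecting duct most of the measured genes were higher after IRI. Of 7 measured genes 7 were higher in intercalated-like cells, which transport acid and base (180 in Sham, 345 in IRI24h-TDN), beside 10.8% of all genes. In connecting tubule- and principal-like cells, which take up sodium and water (236 and 336 cells), 6 of 7 were higher beside 10.7% of all genes. In both classes 0 were lower, beside 7.87% and 9.43% of all genes. Ubd had 0 UMIs in intercalated-like cells, and 2 and 0 UMIs in connecting tubule- and principal-like cells, and was not compared. Levels were low, with sums over the 8 genes of 47.1 and 159 CPM in intercalated-like and 57.3 and 197 CPM in connecting tubule- and principal-like cells of Sham and IRI24h-TDN.

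Rsad2 in intercalated-like cells was at 21.6 CPM in Sham and 59.4 CPM in IRI24h-TDN, in 9.44% and 26.4% of the cells, a log2 ratio of 1.46 (0.999 to 1.94). Irf7 was at 5.29 and 30.4 CPM (2.52, from 1.64 to 3.56). Ifit1 rested on 4 and 78 UMIs and Ifit3 on 3 and 52 UMIs, with log2 ratios of 3.09 (1.68 to 5.001) and 2.92 (1.29 to 5.24). Both the cluster led by Aqp6 and Slc4a1 and the cluster led by Slc26a4 and Insrr had more Rsad2 after IRI, at 11.1 and 54.4 CPM in the former and 41.2 (27.8 to 58.8) and 62.0 CPM (53.6 to 71.3) in the latter, where the intervals overlap. The former held 128 cells of Sham and 143 of IRI24h-TDN, and the latter 52 and 202. What this difference in makeup adds to the ratios of the intercalated-like class was not tested. At 2000 UMIs per cell Bst2 turned to -0.34 (-1.72 to 1.14) in place of 1.11, and Ifit3 was at 0.55 in place of 2.92.

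In connecting tubule- and principal-like cells Irf7 was at 1.58 CPM in Sham and 23.7 CPM in IRI24h-TDN, from 3 and 83 UMIs, a log2 ratio of 3.91 (2.31 to 6.22). Rsad2 was at 4.73 and 28.0 CPM (2.56, from 1.58 to 3.73), though 1 cell held 40.8% of its UMIs after IRI. Ifit3 was at 4.21 and 31.7 CPM, Ifit1 at 8.94 and 35.4 CPM, Gbp2 at 6.31 and 17.7 CPM and Bst2 at 17.4 and 38.8 CPM, all higher. Isg15, the exception, was at 13.1 and 21.4 CPM. Other antiviral genes were higher too, 18 of 25 in intercalated-like and 16 of 27 in connecting tubule- and principal-like cells, with 0 lower in both, and Ifitm3 was at 22.6 and 102 CPM in the former and 53.6 and 227 CPM in the latter.

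Immune RNA was also more frequent in these cells after IRI. The share of intercalated-like cells with a UMI of an immune marker was 14.4% in Sham and 24.1% in IRI24h-TDN, and that of connecting tubule- and principal-like cells 12.7% and 27.1%. Summed macrophage markers in Sham and IRI24h-TDN were 14.9 and 66.5 CPM in the former and 13.1 and 60.2 CPM in the latter. Markers of monocytes and dendritic cells were further apart, at 24.0 and 299.8 CPM in intercalated-like and 4.21 and 47.4 CPM in connecting tubule- and principal-like cells. This sum need not be immune RNA. In PEC-like cells of IRI24h-TD it was at 99.5 CPM, where 0.358% of cells held an immune UMI. Neutrophil markers were at 2.88 and 61.3 CPM, and 2.10 and 17.4 CPM. Their part was not tested beyond leaving out cells. Without the cells that held such a UMI, the summed log2 ratio of the 8 genes was 1.61 in place of 1.76 in intercalated-like cells and 1.67 in place of 1.78 in connecting tubule- and principal-like cells. Gbp2, at 0.69 and 0.95, and Bst2, at 0.97 and 0.87, were then within 2-fold in both, which left 5 and 4 genes higher.

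In the other nephron segments single cells decided much of the result. In ascending limb-like cells (125 in Sham, 440 in IRI24h-TDN) 1 of 7 genes was higher and 1 lower, beside 9.29% and 12.4% of all genes. Ifit3, the lower gene, was at 53.5 CPM in Sham and 7.46 CPM in IRI24h-TDN, but 1 Sham cell held 91.8% of its UMIs. Gbp2, the higher gene, was at 10.9 and 33.2 CPM, and 1 cell held 40.8% of its UMIs after IRI. In distal convoluted tubule-like cells (48 and 442 cells) 3 of 7 genes were higher and 0 lower, beside 10.1% and 15.7% of all genes. They were Ifit1 at 6.55 and 40.6 CPM, Rsad2 at 3.28 and 8.28 CPM and Bst2 at 6.55 and 16.1 CPM, on 2 to 4 UMIs each in Sham. The log2 intervals of Rsad2 (-0.58 to 4.42) and Bst2 (-0.10 to 3.20) hold 0. Irf7 (0 and 37 UMIs) and Gbp2 (0 and 32 UMIs) stayed within 2-fold with the 0 in Sham given 3 counts. These classes, too, differed in their own markers, with ascending limb markers at 21784 and 4697 CPM and distal convoluted tubule markers at 7026 and 3556 CPM in Sham and IRI24h-TDN, and the part of this was not tested.

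Mural cells, the smooth muscle, renin and mesangial cells of the vessel wall and tuft, had 4 of 7 genes lower and 2 higher after IRI (285 and 456 cells), beside 7.71% and 6.48% of all genes. Ifit1 was at 16.9 and 6.48 CPM, Ifit3 at 31.3 and 12.6 CPM, Rsad2 at 9.04 and 2.67 CPM and Bst2 at 54.3 and 25.9 CPM. Isg15 was higher, at 30.7 CPM in Sham and 67.8 CPM in IRI24h-TDN, and so was Irf7, at 3.62 and 9.53 CPM on 6 and 25 UMIs. In fibroblast-like cells (83 and 41 cells) 1 of 7 was higher and 1 lower, beside 14.7% and 19.4% of all genes, with Irf7 at 2.71 and 46.7 CPM and Rsad2 at 24.4 and 9.34 CPM on 9 and 5 UMIs, a ratio whose interval holds 0 (-3.31 to 0.35). The class itself differed between the libraries, with fibroblast markers at 10404 and 31822 CPM, podocyte markers at 5143 and 1627 CPM and PEC markers at 5684 and 5142 CPM. Markers of monocytes and dendritic cells were at 238 and 925 CPM, from 3 and 4 of the 9 genes, and need not be immune RNA. The 28 fibroblast-like cells of IRI24h-TD held less of their own markers, 3365 CPM, than of PEC (6682 CPM) or podocyte markers (7053 CPM), so that the name is not borne out there. The part of this makeup was not tested. Gbp2 was at 241 and 153 CPM there, among the higher levels of this gene in the kidney.

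The tdT+ sort alone was compared with the mixture, both after IRI. In PEC-like cells 0 of 8 genes passed 2-fold in either direction (205 cells in IRI24h-TDN, 279 in IRI24h-TD), beside 3.53% of all genes higher and 2.85% lower in IRI24h-TD. In podocyte-like cells (5190 and 8676 cells) 1 of 7 was lower and 0 higher, beside 4.99% and 1.74% of all genes. That gene was Rsad2, with 48 and 31 UMIs and a log2 ratio of -1.38 (-2.08 to -0.70). The share of podocyte-like cells with an immune UMI was 8.92% in IRI24h-TDN and 0.380% in IRI24h-TD, which held 10 C1q macrophage-like cells, and its part in the Rsad2 difference was not tested. In PTEC-like cells (152 and 84 cells) 5 of 8 were higher and 1 lower, beside 7.01% and 5.78% of all genes. Ubd was at 3.26 and 33.7 CPM, from 9 and 27 UMIs, and 1 cell held 90% of the Ifit3 UMIs and 1 cell 75% of the Isg15 UMIs in IRI24h-TD.

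Across the 24 class and library groups with at least 50 cells, the pattern of each gene was compared with that of all genes by Pearson's r of log2(CPM + 10), as a description only, since groups of 1 library share its depth and preparation. The genes nearest to Ifit3 were Ifit3b (r = 0.95), Tap2 and Herc6, and the gene nearest to Ifit1 was also Ifit3b (0.86). Ifit3 and Ifit3b are close copies, and how reads shared by them were counted is not given in the sources used here, so that their split is uncertain. Bst2 was nearest to Parp14 (0.95), Xaf1 and Gbp3, and Irf7 to Rnf213 (0.91), Tmem71 and Rtp4. Rsad2 was nearest to AW112010 (0.92), Lmo2 and Arap3, Isg15 to Wipf1 (0.88), Pparg and Dhx58, and Gbp2 to Cntln (0.90), Mex3b and Arc. Among the 8 genes the closest pair was Irf7 and Bst2 (0.86), followed by Ifit1 and Rsad2 (0.83). Ubd stood apart from the rest, with r of -0.30 to 0.26 to the other members, and was nearest to Unc5cl (0.99), Dio1 and Foxj1.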

How the data were processed

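The BD Rhapsody system was used to capture single cells, in 1 library for each of Sham, IRI24h-TDN and IRI24h-TD. The tables that the authors deposited hold raw UMI counts, with no normalization. The submitters' processing notes name CASAVA 1.8, UMI-tools, Seurat and mm10. Strand handling is not given in the sources used here.

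Barcodes with at least 200 genes and at most 50% mitochondrial UMIs were kept. Counts were scaled to 10000 per cell. The 2000 variable genes were picked without the 106 genes of the interferon-related lists. H2-, mitochondrial, ribosomal protein and hemoglobin genes were left out as well. These variable genes gave 30 principal components, which were corrected between libraries by Harmony and clustered by Leiden with 15 neighbours at resolution 1. A cluster was named where at least 3 markers were detected in at least 25% of its cells. Mesangial and smooth muscle or renin clusters were joined as mural. This merge, the naming rules and the minimum of 30 cells for a comparison were set after seeing the data. No doublets were removed, and an alternative left out the top 6% of doublet scores. Per class and library, UMIs were summed and given as CPM with exact Poisson intervals, shares with Clopper-Pearson intervals, and ratios with exact conditional binomial intervals, at 95%. A count of 0 was given the limit that 3 counts set. Thinning to 2000 UMIs left out the cells with fewer. Depth per library is given with the results, but depth per class only for C1q macrophage-like cells and podocyte-like cells of Sham. In Sham and IRI24h-TDN the median PTEC-like cell had 7272.5 and 14839.5 UMIs, and in IRI24h-TD 2927.5. For Sham and IRI24h-TDN the median was 2320 and 3798.5 in endothelial-like and 2996 and 12055 in fibroblast-like cells. It was 6508 and 10996.5 in ascending limb-like, 7564.5 and 10569 in PEC-like and 5439 and 5037.5 in mural cells. No test between conditions was possible with 1 library per group.

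The members and gene lists were chosen with earlier results of these data known. The genes named were the 8 members, the 4 genes of each pathway list with the most UMIs over all kept cells, and the 3 genes most like each member among those with at least 200 UMIs. Those shown in a class were picked from these after their values were seen. Alternatives changed the cell filters, clustering, doublets, immune RNA, scaling (edgeR 4.0.16 TMM), depth and UMI limit. One gene of the pathway lists is not reported here. The code was tested on simulated counts. Python 3.11.15, numpy 2.4.6, scipy 1.17.1, scikit-learn 1.9.0, igraph 0.11.9, leidenalg 0.10.2, matplotlib 3.10.9 and R 4.3.3 were used.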

Additional observations from a re-analysis of the deposited data

Results flagged for a closer look

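For 3 of the genes the libraries lay in opposite orders in 2 cell classes, with the whole counting interval past 2-fold in both. Isg15, Irf7, Gbp2 and Bst2 also had intervals on opposite sides of 0 in 2 classes, but not past 2-fold in both. Ifit1 had a log2 ratio of IRI24h-TDN against Sham of 3.09 in intercalated-like cells and -5.23 in C1q macrophage-like cells. Ifit3 was at 2.92 in intercalated-like and -3.22 in C1q macrophage-like cells. Rsad2 was at 2.56 in connecting tubule- and principal-like cells and -4.35 in C1q macrophage-like cells. With 1 library per condition the difference between classes was not tested.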

How the results depend on the processing

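No paired analysis was possible because each group was 1 library. Summed over the 8 genes, the log2 ratio of IRI24h-TDN against Sham stayed near its value under 81 of 98 alternatives. Its sign was the same throughout except in PEC-like cells, where 0.05 became -0.025 at a minimum of 500 genes and -0.037 at most 20% mitochondrial. It moved in podocyte-like cells from -0.10 to -0.19 thinned to 2000 UMIs and -0.014 with TMM. In PEC-like cells it moved from 0.05 to 0.46 without Harmony, 0.35 at resolution 2 and 0.24 without the top 1% of cells. In PTEC-like cells it moved from 0.63 to 1.08 without Harmony, 1.04 without top doublet scores and 1.70 without the top 1% of cells. In endothelial-like cells it moved from -0.51 to -0.87 at resolution 2 and -0.74 without top doublet scores. In macrophage- and monocyte-like cells it moved from -2.48 to -2.56 without the top 1% of cells, -2.59 with TMM and -2.65 without the heat shock cluster, and in C1q macrophage-like cells from -2.41 to -2.52 with TMM and -2.63 without that cluster. It moved to 1.09 from 1.76 in intercalated-like cells at most 20% mitochondrial, and to 1.204 from 1.78 in connecting tubule- and principal-like cells without Harmony. Of 710 values for single genes 646 stayed and 61 moved. Of those whose interval excluded 0, 3 turned sign, namely Gbp2 in PEC-like cells (-0.25) to 0.45 without Harmony and 0.015 without the top 1% of cells, and Bst2 in intercalated-like cells (1.11) to -0.34 when thinned. Counts past 2-fold moved by over 1.5 times in some classes. In podocyte-like cells 2 genes in place of 1 were lower with no UMI limit, thinned or without the top 1% of cells. In PEC-like cells 1 in place of 2 was higher at a minimum of 500 genes, at resolution 2 and without immune RNA, and 1 or 2 in place of 0 were lower under 5 alternatives. In PTEC-like cells 6 or 5 in place of 3 were higher (without the top 1% of cells, without Harmony) and 2 in place of 1 lower when thinned. In intercalated-like cells 4 in place of 7 were higher when thinned. In endothelial-like cells 0 in place of 2 were lower without immune RNA, and 1 at most 20% mitochondrial. The cause of these moves was not tested. Leaving out shared barcodes or the heat shock cluster, adding either of 2 unnamed clusters, and all alternatives in C1q macrophage-like, intercalated-like and connecting tubule- and principal-like cells were chosen after seeing the data. Depth limits values on fewer than 10 UMIs, and 1 library per condition limits them all.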
